A study of Rattus norvegicus with 2 samples.

Results

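AP-1 is a family of dimeric transcription factors, and the genes described here are 10 of its subunits, Fos, Fosb, Fosl1, Fosl2, Jun, Junb, Jund, Atf3, Batf and Maff, of 15577 named genes on the array. They were chosen by name. A target (the set of probes against 1 transcript) was given to the gene of the RefSeq record behind its identifier. Failing that, the gene ID in the authors' table was used, and then the authors' symbol. By this rule 7 of the 10 genes were read, by 9 targets. Batf and Maff were matched to no target. The target that the authors call Fosb goes to Fosl2 by its RefSeq record; by the authors' name 8 genes were read, and which name is right is not settled.

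The TLC-S RNA came from AR42J cells, a rat line grown from an exocrine pancreatic tumour, exposed to 200 µM taurolithocholic acid 3-sulfate (TLC-S) for 20 min, and the control RNA from AR42J cells without it. This sulfated bile acid serves to injure acinar cells in models of biliary pancreatitis. Each group had 1 one-colour NimbleGen array, so no difference below has a replicate check and no p-value was computed. Intensities are the authors' RMA values on a linear scale, and ratios are TLC-S over control. Random-sequence probes gave 40.5 in TLC-S and 44.7 in control, and the authors listed the targets that reached 100 on both arrays, so 100 is used here as the lowest intensity from which a fold is taken. With 1 array under 100, the fold is a bound against 100, written "at least"; with both under it, no fold is given.

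The acinar label was set against its markers. Of 23 acinar genes read, 4 reached 100 on both arrays: the trypsinogens Prss1, Prss2 and Prss3 and the transcription factor Bhlha15. The defining markers Amy2a3 (64.8 in TLC-S, 64.0 in control), Cpa1 (45.5 and 43.1) and Ptf1a (49.3 and 26.5) lay near the random probes. The summed intensity of the 23 genes was 5718 in TLC-S and 30950 in control. Most of that sum came from Prss1 (603 in TLC-S, 5337 in control), Prss2 (856 and 7536) and Prss3 (2183 and 15742). These trypsinogens were 7.21- to 8.85-fold lower in TLC-S. Over the 23 genes, 8 had a log2 ratio above 0 and 15 below it, and the median was -0.25. Of 12 leukocyte genes read, 7 reached 100 on both arrays and 4 were under 100 on both. The sum of the 12 was 18515 in TLC-S and 19997 in control. Ptprc gave 993 in TLC-S and 1175 in control, Cd37 7840 and 10929, and Laptm5 3954 and 3442. These leukocyte markers were thus far brighter than the defining acinar markers above. Why they gave signal in cells with an acinar label was not tested. Of 10 duct and epithelial genes, 2 reached 100 on both arrays (sum 7367 in TLC-S, 6029 in control). Cdh1 held most of that sum (6755 in TLC-S, 5018 in control). By contrast, 8 of these 10 genes had a log2 ratio below 0, and their median was -0.38. Of 8 fibroblast and stellate genes, 0 reached 100 on both arrays (407 in TLC-S, 479 in control). The part of these differences in the AP-1 values was not tested. In RNA from a whole culture, a change in the number of cells of a kind and a change in RNA per cell cannot be told apart.

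AP-1 proteins share a basic region that contacts DNA and a leucine zipper through which they pair. Jun proteins pair with each other or with Fos and Atf proteins, whereas Fos proteins need a partner such as Jun. The dimers bind the TPA-response element (TRE) and the closely related cAMP-response element (CRE). Several subunit genes are immediate early genes, transcribed within minutes of a stimulus from factors already in the cell, and their mRNAs are short-lived. The kinase JNK phosphorylates the Jun protein, and Jun can activate its own gene.

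Jun had the highest ratio of the members. Atf3 was also past 2-fold higher in TLC-S, Fosl2, Jund and Junb were higher by less than 2-fold at the targets that reached 100 on both arrays, and Fos and Fosl1 stayed under 100 on both arrays. By measured ratio, 2 of the 7 genes read were at least 2-fold higher (28.6%), against 8.67% of all named genes, and 0 were at least 2-fold lower, against 5.37%. The members' median log2 ratio was 0.52, beside 0.15 over all named genes; after loess the medians were 0.33 and 0.01. Of the 5 members that reached 100 on both arrays, 2 were at least 2-fold higher, against 10.0% of the 10174 named genes that did so, and 0 were at least 2-fold lower, against 4.37%. At 1.5-fold, 3 of the 7 were higher (against 23.5%) and 0 lower (against 13.1%), and at 3-fold 1 was higher (against 1.95%) and 0 lower (against 1.77%). The 2 members past 2-fold were Jun and Atf3.

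**Figure D1:**
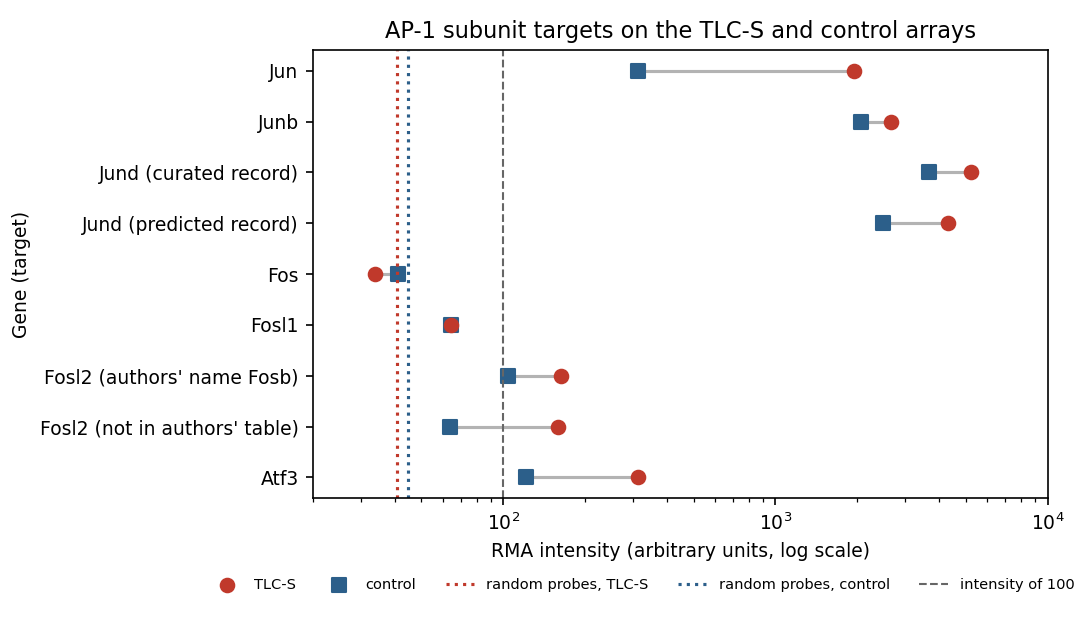
RMA intensity (log axis) of the 9 targets of AP-1 subunit genes on the TLC-S array (circles) and the control array (squares), with the random probes of each array (dotted) and the intensity of 100 (dashed). Jun is furthest apart, at 1942 in TLC-S and 311 in control, Junb and Jund are bright on both arrays, and Fos lies at or under the random probes.

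The Jun gene encodes c-Jun, the subunit through which most AP-1 dimers form. Its single target, of the curated record NM_021835, gave an intensity of 1942 in TLC-S and 311 in control. Both values were clear of the random probes, 47.9 times their intensity in TLC-S and 6.96 times in control. Jun was therefore 6.24-fold higher in TLC-S (log2 ratio 2.64), the 21st highest ratio of 15577 named genes and the 32nd of 26419 targets. Among the 2642 targets of like mean signal (682 to 1855), 9.05% were at least 2-fold higher and the central 95% of log2 ratios ran from -1.33 to 1.46, so Jun lay outside that range. The log2 ratio was 2.58 after centring on the median of all targets, 2.32 after subtraction of a loess curve of ratio on signal, and 2.83 after the random-probe intensity had been subtracted from each array. In the authors' deposited up table Jun stood with a fold of 6.24.

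**Figure D2:**
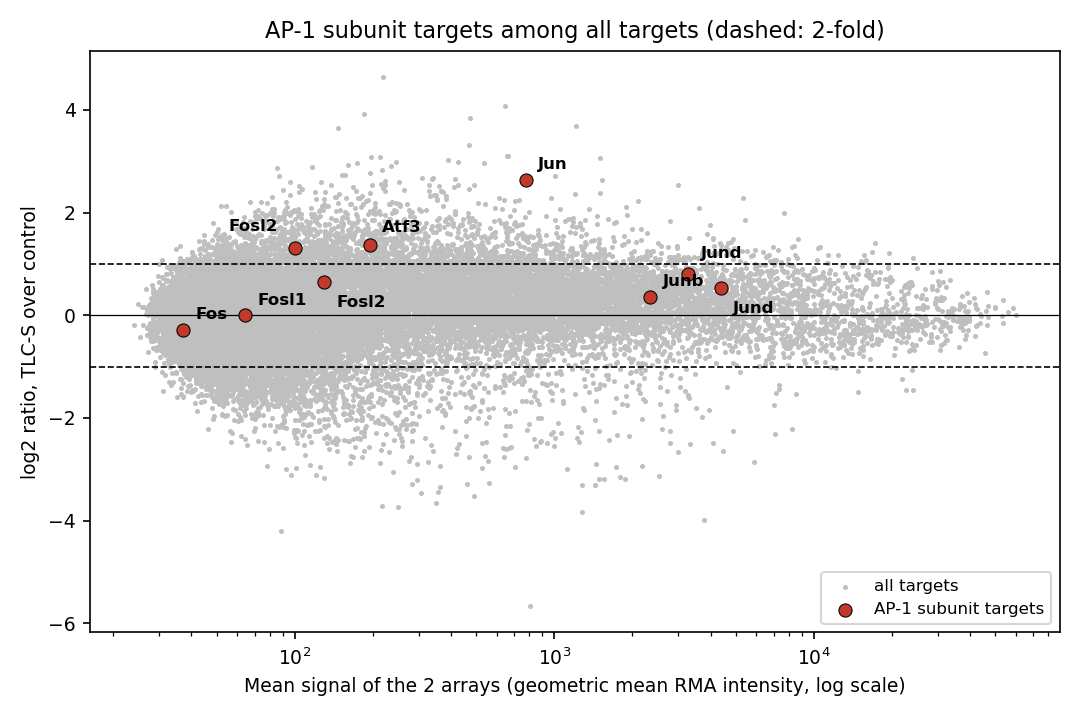
The log2 ratio of TLC-S over control against the mean signal (log axis) of all 26419 targets (grey) and of the 9 AP-1 subunit targets (red), with 2-fold marked by dashed lines. Jun, at 2.64, stands at the upper edge of targets of its signal, whereas Atf3, at 1.37, and both Fosl2 targets lie within the cloud.

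The genes outside the lists used here, locus-number names aside, whose pair of intensities was closest to that of Jun (Euclidean distance of log2 intensity over the 2 arrays) were C3 (1529 in TLC-S and 327 in control; distance 0.35), Cdk1 (1605 and 400; 0.45), Reln (1932 and 227; 0.46), Rrm2 (1425 and 343; 0.47) and Kif2c (1922 and 225; 0.47). The 2 arrays fix only a level and a difference, so this likeness describes those values alone.

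Junb and Jund, the other Jun family genes, were bright on both arrays. JunB can dampen the activity of c-Jun on many promoters, and JunD is abundant in resting cells. Junb gave 2651 in TLC-S and 2066 in control, 1.28-fold higher (log2 ratio 0.36). The curated Jund target gave 5249 in TLC-S and 3657 in control, 1.44-fold higher (0.52), and the target of a predicted Jund record gave 4320 and 2491, 1.73-fold higher (0.79). Both Jund targets and the Junb target thus pointed up by less than 2-fold, within the central 95% of targets at their signal, from -1.03 to 1.18. Targets of 1 gene differed among themselves by an SD of 0.42 in log2 ratio (580 genes with several targets), larger than the Junb difference and close to that of the curated Jund target. This SD is between targets on the same 2 arrays, so it does not measure variation between cultures or arrays. Of 10 reference genes, 0 passed 2-fold in either direction; their median log2 ratio was 0.38, with Ywhaz (0.72), Actb (0.72) and Ppia (0.67) highest and B2m (-0.67) and Rplp0 (-0.10) lowest. Junb and the curated Jund target lay within this range, and the predicted Jund target above it. After the loess curve was subtracted, the log2 ratio was 0.10 for Junb and 0.33 for the curated Jund target.

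Of the 10 members, 7 had a promoter in the RefSeq table of build GRCr8, and those of Junb and Jund are shown because these genes were far above the random probes on both arrays. Each line holds the 250 bases before the annotated start. Capitals mark the CRE letters TGACGTCA in Jund, which begin 221 bases before the start, and the TATA box letters TATAAA in Junb, which begin 49 bases before it.
Junb, GRCr8 chr19:40080876-40081125, + strand: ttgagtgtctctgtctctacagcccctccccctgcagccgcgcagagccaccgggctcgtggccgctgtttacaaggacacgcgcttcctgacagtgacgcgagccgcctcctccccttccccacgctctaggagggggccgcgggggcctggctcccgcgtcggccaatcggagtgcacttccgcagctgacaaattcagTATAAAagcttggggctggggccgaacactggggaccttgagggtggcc
Jund, GRCr8 chr16:18769772-18770021, - strand: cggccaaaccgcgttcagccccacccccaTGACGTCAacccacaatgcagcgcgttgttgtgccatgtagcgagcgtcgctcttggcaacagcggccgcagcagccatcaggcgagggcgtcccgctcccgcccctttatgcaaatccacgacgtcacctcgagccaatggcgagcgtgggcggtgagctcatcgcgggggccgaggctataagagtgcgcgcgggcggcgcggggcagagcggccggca
The motifs searched were the TRE TGACTCA and the CRE TGACGTCA on both strands, and TATAAA on the gene's strand; the TRE and the CRE letters cannot coincide at 1 position. Among 27457 promoters of this length, 3.98% held the TRE letters, 1.70% the CRE letters and 8.38% the TATA letters. Of the 7 member promoters, 0 held the TRE letters and 2 (Jund and Maff) the CRE letters. A match describes letters, not a bound site.

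Among the Fos family, whose proteins bind DNA only with a partner, the signal was low. Fos, the founding immediate early gene, gave 33.6 in TLC-S and 40.9 in control, both under the random probes of the same array (0.83 and 0.92 times their intensity). Its target therefore holds no level on either array, and no fold is given. Fosl1, which encodes Fra-1, gave 64.1 in TLC-S and 64.0 in control, above the random probes but under 100 on both arrays. The log2 ratio of Fosl1 was 0.00, and its sign changed with the scaling (-0.06 after centring, 0.10 after loess).

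Fosl2, which encodes Fra-2, was read by 2 targets. The target of NM_012954 gave 159 in TLC-S and 63.7 in control, at least 1.59-fold higher. The target of NM_001013146 gave 163 in TLC-S and 104 in control, 1.57-fold higher (log2 ratio 0.65). The authors' table names this second target Fosb, whereas the present RefSeq table gives the same accession to Fosl2, so the gene it reports is not settled. Both targets were higher in TLC-S, and the first was under 100 in control. Counted as Fosb, the second target would make 8 genes read, leave Fosl2 with a measured log2 ratio of 1.32 and raise the number past 2-fold to 3. Among the 2641 targets of like signal (91.7 to 151), 14.6% were at least 2-fold higher, with a central 95% of log2 ratios from -1.88 to 1.75, which holds both Fosl2 targets.

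Atf3, a stress-induced factor that pairs with Jun proteins and often represses as a homodimer, gave 313 in TLC-S and 121 in control. These are 7.73 and 2.70 times the random probes. Atf3 was 2.59-fold higher in TLC-S (log2 ratio 1.37), rank 485 of 15577 named genes, and the authors' deposited up table gives it a fold of 2.59. Around its mean signal of 195, ratios past 2-fold were common: of 2642 targets between 151 and 309, 17.1% were at least 2-fold higher. The central 95% of their log2 ratios ran from -2.02 to 1.96, which holds Atf3. Over all targets, 2.94% had a higher ratio than Atf3. The log2 ratio was 1.13 after loess, 1.09 with an offset of 50 added to both intensities and 1.84 after the random probes were subtracted.

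The authors' deposited table of molecular functions gives enrichment of their higher targets. Jun and Atf3 are in it because they are among those targets. Jun was listed under 9 of 106 terms and Atf3 under 5. These terms include broad ones such as binding (688 of 10933 genes), and the terms below were picked from them. Protein dimerization activity, a property that AP-1 subunits share with many other proteins, held both (49 of 575 genes, p = 0.000422 in the authors' deposited table). Transcription activator activity listed Jun alone of the members (23 of 294 genes, p = 0.0325 in the authors' deposited table). The list of higher targets comes from arrays without replicates, so these p-values cannot show whether Jun or Atf3 changed. They were not corrected here for the 106 terms.

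The kinases that act on AP-1 were read next. JNK is activated by the kinases encoded by Map2k4 and Map2k7, p38 by those of Map2k3 and Map2k6, and ERK by those of Map2k1 and Map2k2. Of 25 genes of this module, 4 were at least 2-fold higher (16.0%, against 8.67% of all named genes) and 0 at least 2-fold lower (against 5.37%). Their median log2 ratio was 0.23, beside 0.15 over all named genes. Over the 21 that reached 100 on both arrays the median was also 0.23, but beside 0.25 over all named genes that did so. Of these 21, 3 were at least 2-fold higher (against 10.0%) and 0 at least 2-fold lower (against 4.37%).

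The 3 highest were Map2k6, at 553 in TLC-S and 90.3 in control (at least 5.53-fold higher), Mapk8 and Mapk14. Mapk8, which encodes JNK1, gave 324 in TLC-S and 116 in control (2.79-fold higher) at its brighter target. The other Mapk8 target gave 226 and 112 (2.02-fold higher); both come from predicted records. Mapk14, which encodes p38 alpha, gave 2004 in TLC-S and 905 in control (2.21-fold higher). The remaining gene past 2-fold, Map2k4, gave 716 in TLC-S and 352 in control (2.04-fold higher) and is named outside the rule, after its values were seen. The 3 lowest of those at 100 or more were Map3k1 (632 in TLC-S, 1014 in control; 1.60-fold lower), Map3k5, which encodes ASK1 (357 and 451; 1.26-fold lower), and Map3k4 (2819 and 3021; 1.07-fold lower). The other Map3k5 target pointed the other way, with 320 in TLC-S and 291 in control. Another gene of the tier that activates these kinases, Map3k11, was 1.42-fold higher, so that tier held both signs. After loess the median of the module was -0.09, beside 0.01 over all named genes.

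**Figure D3:**
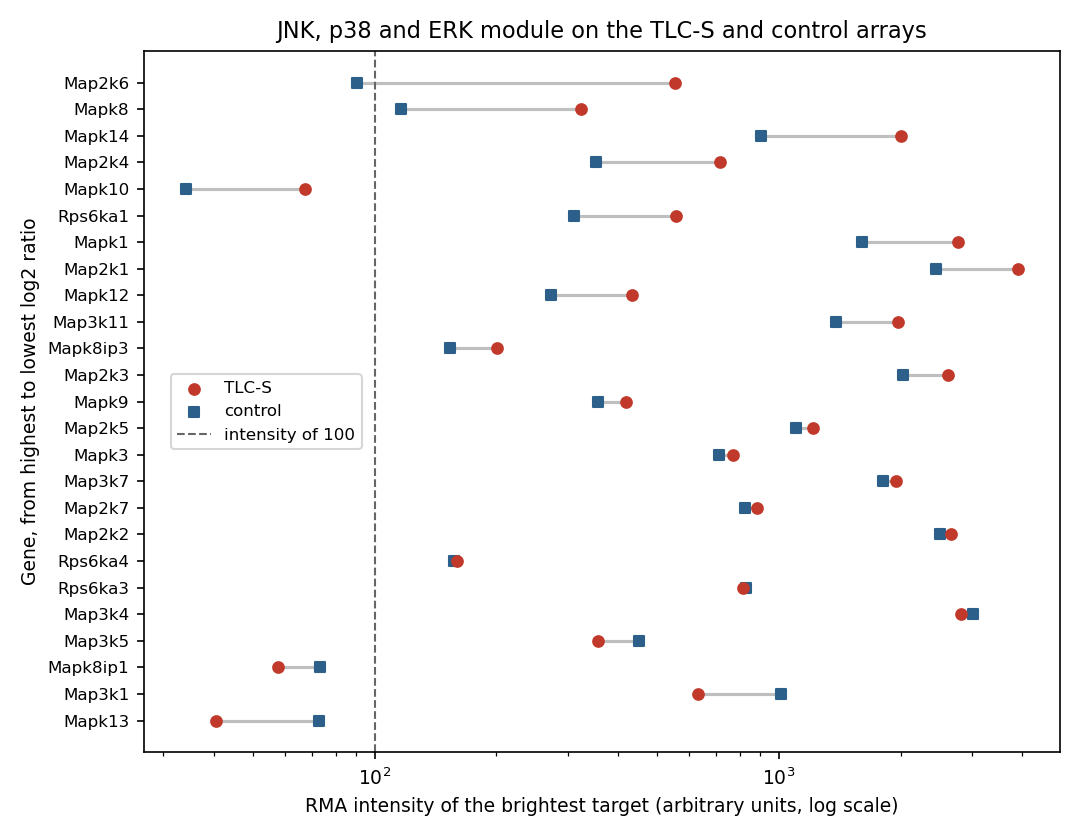
RMA intensity (log axis) of the 25 genes of the JNK, p38 and ERK module, each at its brightest target, on the TLC-S array (circles) and the control array (squares), ordered by log2 ratio. Map2k6 is at 553 in TLC-S and 90.3 in control at the top, and Map3k1, at 632 and 1014, is near the bottom.

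Factors that drive the Fos and Jun promoters were read for 14 genes, all at 100 or more on both arrays. None passed 2-fold (0 higher, against 10.0% of the named genes that reached 100 on both, and 0 lower, against 4.37%). The median log2 ratio was 0.32, beside 0.25 over those genes; after loess the medians were 0.01 and -0.0021. Stat3 gave 8745 in TLC-S and 4438 in control (1.97-fold higher). Srf, which binds the serum response element of Fos, gave 1147 and 615 (1.87-fold higher), and its partner Elk1 gave 1955 and 1228 (1.59-fold higher). At the other end, Elk4 gave 872 in TLC-S and 1129 in control (1.29-fold lower), Mef2d 5909 and 5632 (1.05-fold higher) and the CREB coactivator Crtc2 5775 and 5354 (1.08-fold higher).

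Among 15 genes for cofactors and for turnover of AP-1 proteins and mRNAs, 1 was at least 2-fold higher (6.67%, against 8.67%) and 0 at least 2-fold lower (against 5.37%). That gene was Zfp36, which encodes tristetraprolin, a protein that destabilises AU-rich mRNAs, at 901 in TLC-S and 241 in control (3.75-fold higher). The coactivator Ncoa1 gave 385 and 199 (1.93-fold higher), and thioredoxin, Txn1, 23971 and 13436 (1.78-fold higher). The 3 lowest were Nfatc2 (140 in TLC-S and 180 in control; 1.28-fold lower), the redox factor Apex1 (5180 and 6338; 1.22-fold lower) and the corepressor Ncor1 (2096 and 2320; 1.11-fold lower). Nfatc2 had a second, dimmer target with 171 in TLC-S and 137 in control, opposite in sign.

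Some of the other leucine zipper factors pair with Jun or Fos. Of 32 read, 1 was at least 2-fold higher (3.12%, against 8.67%) and 3 at least 2-fold lower (9.38%, against 5.37%), and the median log2 ratio was -0.09. Of the 25 that reached 100 on both arrays, 1 was at least 2-fold higher (against 10.0%) and 2 lower (against 4.37%). The balance changed with the setting: after loess 0 of the 32 were higher and 4 lower, and after subtraction of the random probes 5 higher and 5 lower. The highest was Hlf, at 550 in TLC-S and 248 in control (2.22-fold higher) by a target the authors list under a predicted gene name. Its other target gave 156 and 131 (1.19-fold higher). Nfe2l2, which encodes the oxidative stress factor NRF2, gave 525 and 279 (1.88-fold higher), and Bach2 881 and 543 (1.62-fold higher). Ddit3, which encodes the stress factor CHOP, gave 1908 in TLC-S and 5329 in control (2.79-fold lower). Dbp, a factor of the circadian clock, gave 308 and 708 (2.30-fold lower), and Maf gave 83.7 and 226 (at least 2.26-fold lower).

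**Figure D4:**
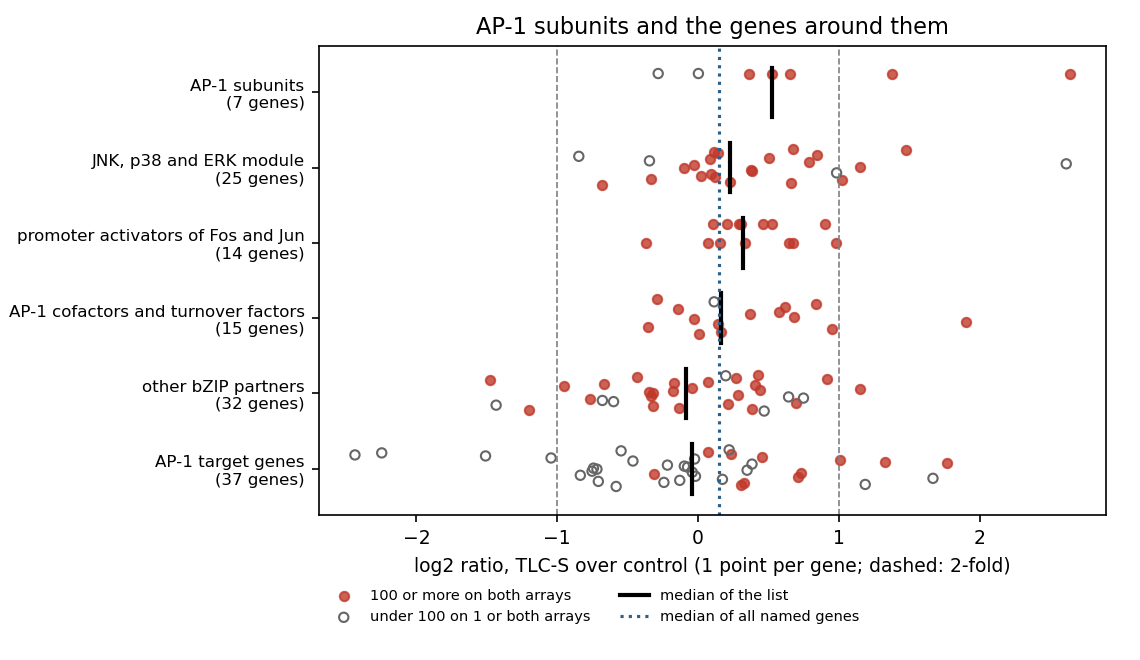
The log2 ratio of TLC-S over control for every gene read in the AP-1 subunit list and 5 related lists, filled where both arrays reached 100 and open otherwise, with each list's median (bar), the median of all named genes (dotted) and 2-fold (dashed). Jun, at 2.64, is the highest point of the subunits. The subunit median is 0.52 and that of the other leucine zipper factors -0.09. The other immediate early genes, with a median of 0.58, are not drawn.

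Genes known as AP-1 targets in other systems were mostly dim. Of 37 read, 19 were under 100 on both arrays, 5 were at least 2-fold higher by measured ratio (13.5%, against 8.67%) and 4 at least 2-fold lower (10.8%, against 5.37%). Once bounds replaced measured ratios, 3 higher and 2 lower genes were left past 2-fold. The median log2 ratio was -0.04, and 0.45 over the 11 genes that reached 100 on both, beside 0.25 over all named genes that did so. Of these 11, 10 had a log2 ratio above 0 and 1 below it (8 and 3 after loess), with 3 at least 2-fold higher (against 10.0%) and 0 at least 2-fold lower (against 4.37%). The 4 genes counted as lower were all under 100 in TLC-S. Mt1, which encodes a metallothionein, gave 7320 in TLC-S and 2152 in control (3.40-fold higher), the DNA methyltransferase Dnmt1 4362 and 1735 (2.51-fold higher) and Cd44 113 and 35.6 (at least 1.13-fold higher). The chemokine Cxcl1 gave 62.9 in TLC-S and 341 in control (at least 3.41-fold lower), Faslg, the ligand of the death receptor Fas, 56.6 and 268 (at least 2.68-fold lower) and the gelatinase Mmp9 44.5 and 127 (at least 1.27-fold lower).

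Of 32 promoters matched for these target genes, 6 (18.8%) held the TRE letters within 250 bases of the start, beside 3.98% of all promoters. The TATA letters were in 15 (46.9%), beside 8.38%. A TRE can be part of why a gene is listed as an AP-1 target, so its share here tests nothing. Of the 6 with the TRE letters, the 4 whose genes were read, and whose TRE lies in the last 120 bases, are shown. They were chosen by that match, and Mmp3, Mmp10 and Mmp12 lie close together on chromosome 8. The stretches end at the base before the start, and capitals mark the TRE, written as TGACTCA or, on the other strand, as TGAGTCA.
Mmp3, GRCr8 chr8:12925161-12925280, + strand: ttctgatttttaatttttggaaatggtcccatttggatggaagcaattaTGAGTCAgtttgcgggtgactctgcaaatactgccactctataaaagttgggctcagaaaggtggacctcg
Mmp10, GRCr8 chr8:12974587-12974706, + strand: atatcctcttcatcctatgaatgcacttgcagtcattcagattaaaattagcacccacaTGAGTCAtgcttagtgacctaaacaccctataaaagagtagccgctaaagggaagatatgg
Mmp12, GRCr8 chr8:12866532-12866651, + strand: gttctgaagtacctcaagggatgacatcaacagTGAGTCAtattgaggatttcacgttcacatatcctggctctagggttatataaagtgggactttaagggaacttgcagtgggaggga
Plaur, GRCr8 chr1:89181243-89181362, + strand: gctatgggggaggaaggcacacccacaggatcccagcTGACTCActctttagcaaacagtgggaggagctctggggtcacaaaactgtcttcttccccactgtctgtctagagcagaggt
The TRE begins 71 bases before the start in Mmp3, 61 in Mmp10, 87 in Mmp12 and 83 in Plaur. The 3 matrix metalloproteinase genes were under 100 on both arrays: Mmp3 gave 60.6 in TLC-S and 90.7 in control, Mmp10 30.3 and 31.2, and Mmp12 51.6 and 45.8. Plaur, the urokinase receptor, gave 389 in TLC-S and 332 in control (1.17-fold higher) at its brighter target and 281 and 337 (log2 ratio -0.26) at the other, so its 2 targets differed in sign. So of these 4 genes, named for their promoters, only Plaur had a level to compare.

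Among 26 other immediate early genes, 5 were at least 2-fold higher by measured ratio (19.2%, against 8.67%). At least 2-fold lower was 1 gene (3.85%, against 5.37%). The median log2 ratio was 0.58, beside 0.52 for the AP-1 subunits and 0.15 over all named genes. After loess these medians were 0.41, 0.33 and 0.01, so a raised median was not particular to the subunits. With bounds in place of measured ratios, 3 of the 26 genes were past 2-fold higher. Of the 15 that reached 100 on both arrays, 2 were at least 2-fold higher (against 10.0%) and 1 at least 2-fold lower (against 4.37%). The median of these 15 was 0.26, beside 0.25 over all named genes that did so. Apart from Zfp36, above, the highest were the growth arrest gene Gadd45b, at 761 in TLC-S and 143 in control (5.34-fold higher), and the MAP kinase phosphatase Dusp1, at 203 and 49.6 (at least 2.03-fold higher). The 3 lowest were Klf4, at 163 in TLC-S and 366 in control (2.25-fold lower), Dusp2, at 178 and 254 (1.42-fold lower), and Myc, at 15905 and 18838 (1.18-fold lower). Egr1, which like Fos is driven through serum response elements, gave 94.0 in TLC-S and 74.5 in control, under 100 on both arrays; it was named after its values were seen.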

How the data were processed

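Total RNA from each group was labelled (Cy3) and hybridised to 1 array, per the labels' protocols. What the authors deposited for each target is a linear RMA intensity. RMA stands in the submitters' processing notes; the version and the background step are not given in the sources used here. A fold (ratio) is given in the authors' tables of up and down targets, and a p-value per term in their molecular function table, per the file headers.

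Targets were named from their RefSeq accession (9747), a gene ID (4950) or the authors' symbol (1644) through RefSeq's GRCr8 gene table. Log2 ratios were computed from the deposited intensity values. In counts and medians a gene has the value of its brightest target. With 1 array per group no test was run, and the number of arrays limits the precision.

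The members, gene lists and alternatives were chosen with earlier results of these data known. Named by rule are all members, the 3 highest and 3 lowest ratios of each related list among genes at 100 or more on at least 1 array, and the 5 genes nearest to Jun; cell type marker lists are given by counts, sums and defining markers. Map2k4, Map3k11, Egr1 and the genes whose promoters are printed fall outside the rule. A reference gene that the rule names is not reported here. Alternatives were median centring, loess (span 0.3, 3 iterations), an offset of 50, subtraction of the random probes with a floor of 10, other choices of target, limits, thresholds and files. The loess step and the choice of the brightest target were tested on simulated data whose noise was smaller than the spread of these ratios. The naming of targets and the bounds were not tested in this way. Python 3.11.15 was used with the packages pandas 2.3.3, numpy 2.4.6, statsmodels 0.14.6, scipy 1.17.1 and, for plots, matplotlib 3.10.9.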

Additional observations from a re-analysis of the deposited data

How the results depend on the processing

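No paired analysis was possible because there was 1 array in TLC-S and 1 in control, so no replicate could be left out either. Naming the disputed target as Fosb was chosen after seeing the data. Jun, Atf3, Fosl2, Jund and Junb stayed above 0 in all alternatives. Many alternatives could not differ from the main value, so this is weak evidence of stability. These were the series matrix, the authors' table and the limit of 100 for genes that reached it. For genes with 1 target, the choice of target changed nothing either. Of 66 alternative values of single members, such repeats included, 3 moved by more than 0.42, the SD between targets of a gene. Fosl2 was 1.32 at its dimmest target and with the authors' name for the other, and Atf3 was 1.84 after subtraction of the random probes. The values of the series matrix repeat those of the sample files. Among the subunits, 2 genes were higher in the main setting and 1 at a threshold of 3-fold; 3 were higher after subtraction of the random probes, at the dimmest target, at 1.5-fold and with the authors' name for the disputed target; 0 were lower under every alternative. Loess moved the median of all named genes by over 0.1, to 0.01, against 0.15 as deposited; it also gave medians of -0.0914 for the JNK, p38 and ERK module (0.23 as deposited) and 0.0141 for promoter activators. Limits of 100 on both arrays and the authors' table, which hold the same fewer targets, each gave AP-1 target genes a median of 0.453, with 3 genes higher and 0 lower, against 5 and 4. An offset of 50 gave these targets 2 higher and 2 lower, and subtraction of the random probes 10 lower. For other leucine zipper factors (1 higher and 3 lower), loess, the mean over targets and the dimmest target each gave 0 higher, and subtraction of the random probes 5 higher and 5 lower. That subtraction also gave 1 lower gene in the kinase module and 2 higher among cofactors. At 1.5-fold the counts were 9 higher and 2 lower for the kinase module, 4 higher for promoter activators, 5 higher for cofactors, 5 higher and 8 lower for other leucine zipper factors and 9 lower for AP-1 targets. At 3-fold they were 1 higher for the kinase module, 0 higher and 0 lower for other leucine zipper factors, and 2 higher and 2 lower for AP-1 targets.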
